A study of Drosophila melanogaster with 6 samples.

Results

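The first tarsal segment of the Drosophila melanogaster pupal foreleg was compared between a 16 h and a 12 h male library, with ages counted from puparium formation (APF). This segment carries the sex comb in males, a row of modified bristles. Each library pools the dissected first tarsal segments of many pupae into 1 single-cell suspension, and a droplet 3' assay counted unique molecular identifiers (UMIs, 1 per captured RNA molecule) per gene and cell. The 16 h males were dsx-GAL4 > UAS-GFP and the 12 h males dsx-GAL4 > UAS-mCherry, so both drive a reporter from the sex-determination gene doublesex and the reporter changes together with the age. The 20 h males (dsx-GAL4 > UAS-mCherry, as at 12 h) are given where their levels help, and the 12 h females (dsx-GAL4 > UAS-mCherry), 24 h females (RAL-517) and 36 h males (dsx-GAL4 > UAS-mCherry) only for single genes and the heat shock sum. A barcode counted as a cell if it had 500 or more detected genes and no more than 10% mitochondrial UMIs, which left 11820 cells at 16 h and 11646 at 12 h, 23466 of the 71346 cells that pass in all 6 libraries.

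In these hours the pupa passes between its prepupal and pupal programs. A falling and then rising titre of the steroid hormone 20-hydroxyecdysone drives a relay of nuclear receptors and transcription factors, the epidermis detaches from the cuticle it laid down as a prepupa, and the leg extends. Sensory bristle precursors, picked out by proneural genes and Notch signalling, divide to give the cells of each bristle, while most epidermal cells end their last divisions.

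There is 1 library per age, so nothing here was tested against the spread between animals, and age, reporter genotype and library cannot be told apart. The 16 h library held 67454195 UMIs with a median of 5169 per cell, against 142384705 and 11209 at 12 h. A level is the sum of a gene's UMIs over all kept cells, scaled to a library total of 1000000 UMIs (CPM). Ratios are given as log2 of 16 h over 12 h, with 0.5 UMIs added to each count. Intervals are 95%, exact, and cover counting error only, and 3 counts correspond to 0.0445 CPM at 16 h and 0.0211 CPM at 12 h. Because levels are summed over cells, fewer cells of a type and less RNA per cell cannot be told apart. The libraries shared 37 cell barcodes, 0.318% of the smaller one. GFP stood at 50.3 CPM at 16 h with no mCherry UMI, and mCherry at 171 CPM at 12 h with no GFP UMI, as the labels say. The male-specific dosage compensation RNAs lncRNA:roX1 and lncRNA:roX2 had 625 and 1038 CPM at 16 h and 668 and 415 CPM at 12 h, against 20.6 and 0.502 CPM in the 12 h females. The foreleg homeotic gene Scr had 272 CPM at 16 h and 202 CPM at 12 h, and the sex switch gene Sxl 110 CPM at 16 h and 128 CPM at 12 h, against 323 CPM in the 12 h females.

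Among 6276 genes with a mean of at least 5 CPM over the pair of libraries, 215 were at least 2-fold higher at 16 h (3.43%) and 555 at least 2-fold lower (8.84%), 12.3% in all. The median log2 ratio was -0.13, with quartiles of -0.52 and 0.23. Cytosolic ribosomal protein genes took 40.6% of all UMIs at 16 h and 32.3% at 12 h, so the level of every other gene depends on whether they are counted in the total. When they and the mitochondrial genes were left out of the total, the median moved by 0.20 to 0.073, and 431 genes were at least 2-fold higher against 452 lower. Of the genes compared, 263 reached the mean only through their 12 h level and 169 only through their 16 h level. Among the 5844 genes with at least 5 CPM in both libraries, 136 were at least 2-fold higher (2.33%) and 418 lower (7.15%).

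**Figure D1:**
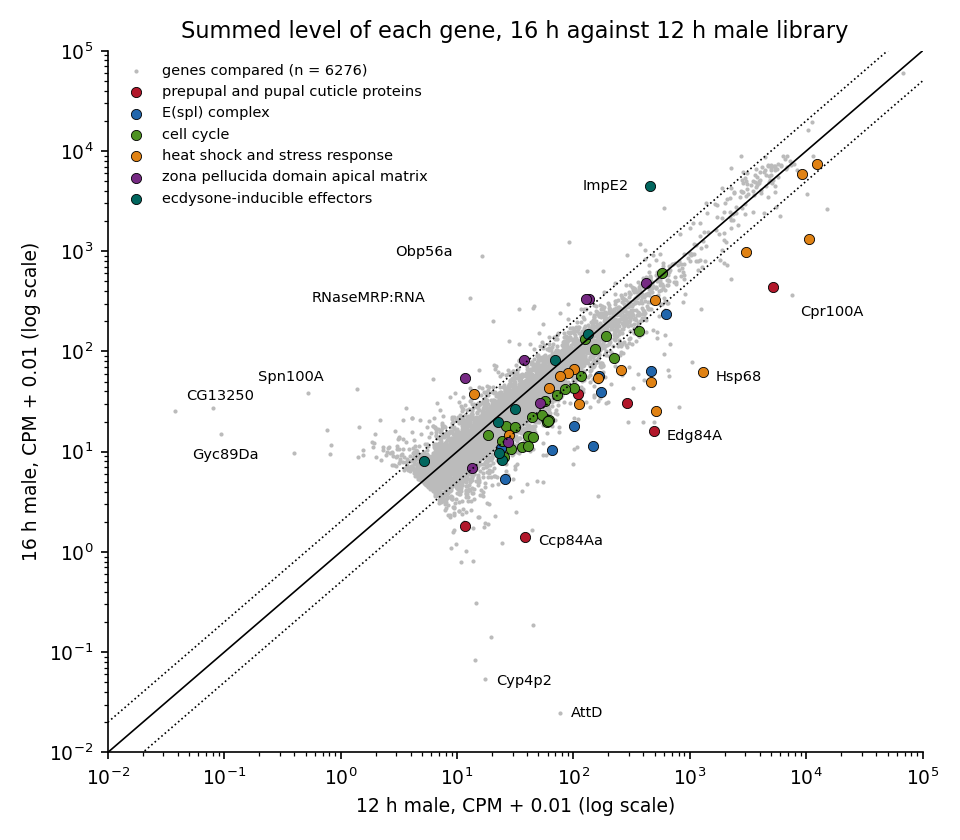
Level of each of the 6276 genes compared in the 16 h male library (vertical axis, CPM + 0.01, log scale) against the 12 h male library (horizontal axis, same scale); the solid line marks equal levels and the dotted lines 2-fold, and coloured points are members of 6 gene lists. Cuticle protein, E(spl) and cell cycle genes lie mostly below the lower dotted line, and ImpE2 stands at 4456 CPM at 16 h against 453 CPM at 12 h.

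The ratio also differed with the length of the transcript. For 6249 of the genes compared, a median length of the annotated transcripts was available. The 130 genes under 500 bases had a median log2 ratio of -0.96, and 47.7% of them were at least 2-fold lower at 16 h. The 438 genes of at least 500 and under 750 bases had a median of only -0.14, with 14.4% at least 2-fold lower. The 544 genes of at least 750 and under 1000 bases had a median of -0.02 and 9.38% at least 2-fold lower, and the 586 genes of 5000 bases or more had a median of 0.10 and 3.75% at least 2-fold lower. Genes under 500 bases were also low at 16 h relative to 20 h, with a median log2 ratio of -0.61 against 0.67 for those of at least 750 and under 1000 bases. Lengths are given beside the groups in which short genes are frequent, and the part of length in those results was not tested. Of 5681 genes of 750 bases or more, 199 were at least 2-fold higher (3.50%) and 425 lower (7.48%).

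**Figure D2:**
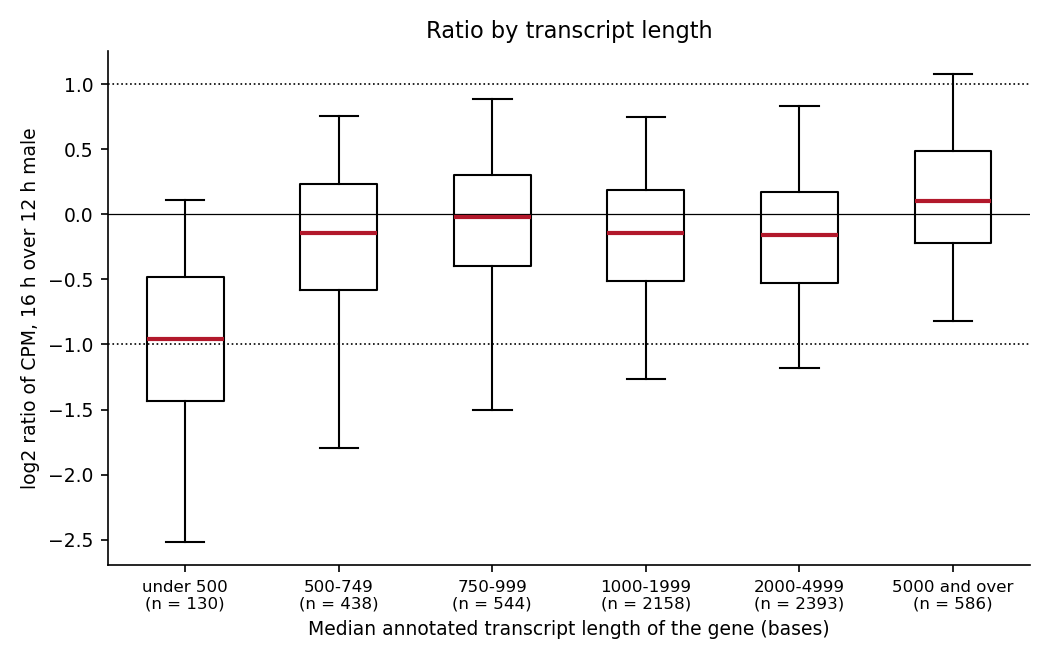
Log2 ratio of CPM, 16 h over 12 h male (vertical axis), for genes grouped by the median length of their annotated transcripts in bases (horizontal axis); red lines are medians, boxes quartiles and whiskers the 5th and 95th percentiles over genes. The median of the 130 genes under 500 bases is -0.96, against -0.02 for the 544 genes of at least 750 and under 1000 bases.

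The genes that stood highest at 16 h relative to 12 h included secreted proteins, a cuticle protein, a serine protease inhibitor and several genes known only by number. Obp56a, an odorant-binding protein gene, had 894 CPM at 16 h and 16.5 CPM at 12 h (log2 ratio 5.76, interval 5.70 to 5.82). It was higher again at 20 h, with 11516 CPM. Spn100A, a serpin, had 38.2 CPM at 16 h and 0.513 CPM at 12 h (log2 6.21), and 326 CPM at 20 h. Cpr49Ae, of the chitin-binding Rebers-Riddiford cuticle protein family, had 41.9 CPM at 16 h and 1.37 CPM at 12 h (log2 4.93), and 341 CPM at 20 h. All 3 were thus lowest at 12 h and highest at 20 h among these males. CG18735 had 92.3 CPM at 12 h, 1224 at 16 h and 1482 at 20 h. RNaseMRP:RNA, the RNA component of an RNA-processing enzyme, had 342 CPM at 16 h and 13.01 CPM at 12 h (log2 4.72), with 394 CPM at 20 h and 5.74 CPM in the 12 h females, and is 382 bases long. CG16959, CG34038 and CG4962 completed those whose 20 h level was as high or higher, with log2 ratios of 3.83, 3.63 and 3.32. In CPM rather than ratio, the largest gains outside the ribosomal proteins were in Cpr72Ea (19515 CPM at 16 h and 11151 CPM at 12 h), bnb, CG34247, CG13023 and ImpE2. Among the largest differences downwards in CPM outside the groups below was lncRNA:CR34335, with 59438 CPM at 16 h and 67644 CPM at 12 h and a length of 305 bases.

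4 genes that were high at 16 h stood near 0 on both sides of it. CG13250 had 25.7 CPM at 16 h and 0.0281 CPM at 12 h (1732 against 4 UMIs), and 0.0601 CPM at 20 h. Gyc89Da, a guanylyl cyclase gene, had 0.0843 CPM at 12 h, 15.1 at 16 h and 0.0343 at 20 h. CG42613 had 0.751 CPM at 12 h, 16.5 at 16 h and 1.19 at 20 h. None of these 3 exceeded 2.33 CPM in any of the other 5 libraries, and the 16 h library is also the only one with UAS-GFP, so age and genotype cannot be told apart for them. The antisense RNA asRNA:CR46487 had 27.5 CPM at 16 h and 0.0702 CPM at 12 h, 0.120 CPM at 20 h, but 83.1 CPM in the 24 h females of the RAL-517 strain. CG14661 peaked at 16 h less steeply, with 1.87 CPM at 12 h, 12.4 at 16 h and 1.49 at 20 h, and 85.6% of its UMIs at 16 h came from cells of the sensory organ-like class described below.

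**Figure D3:**
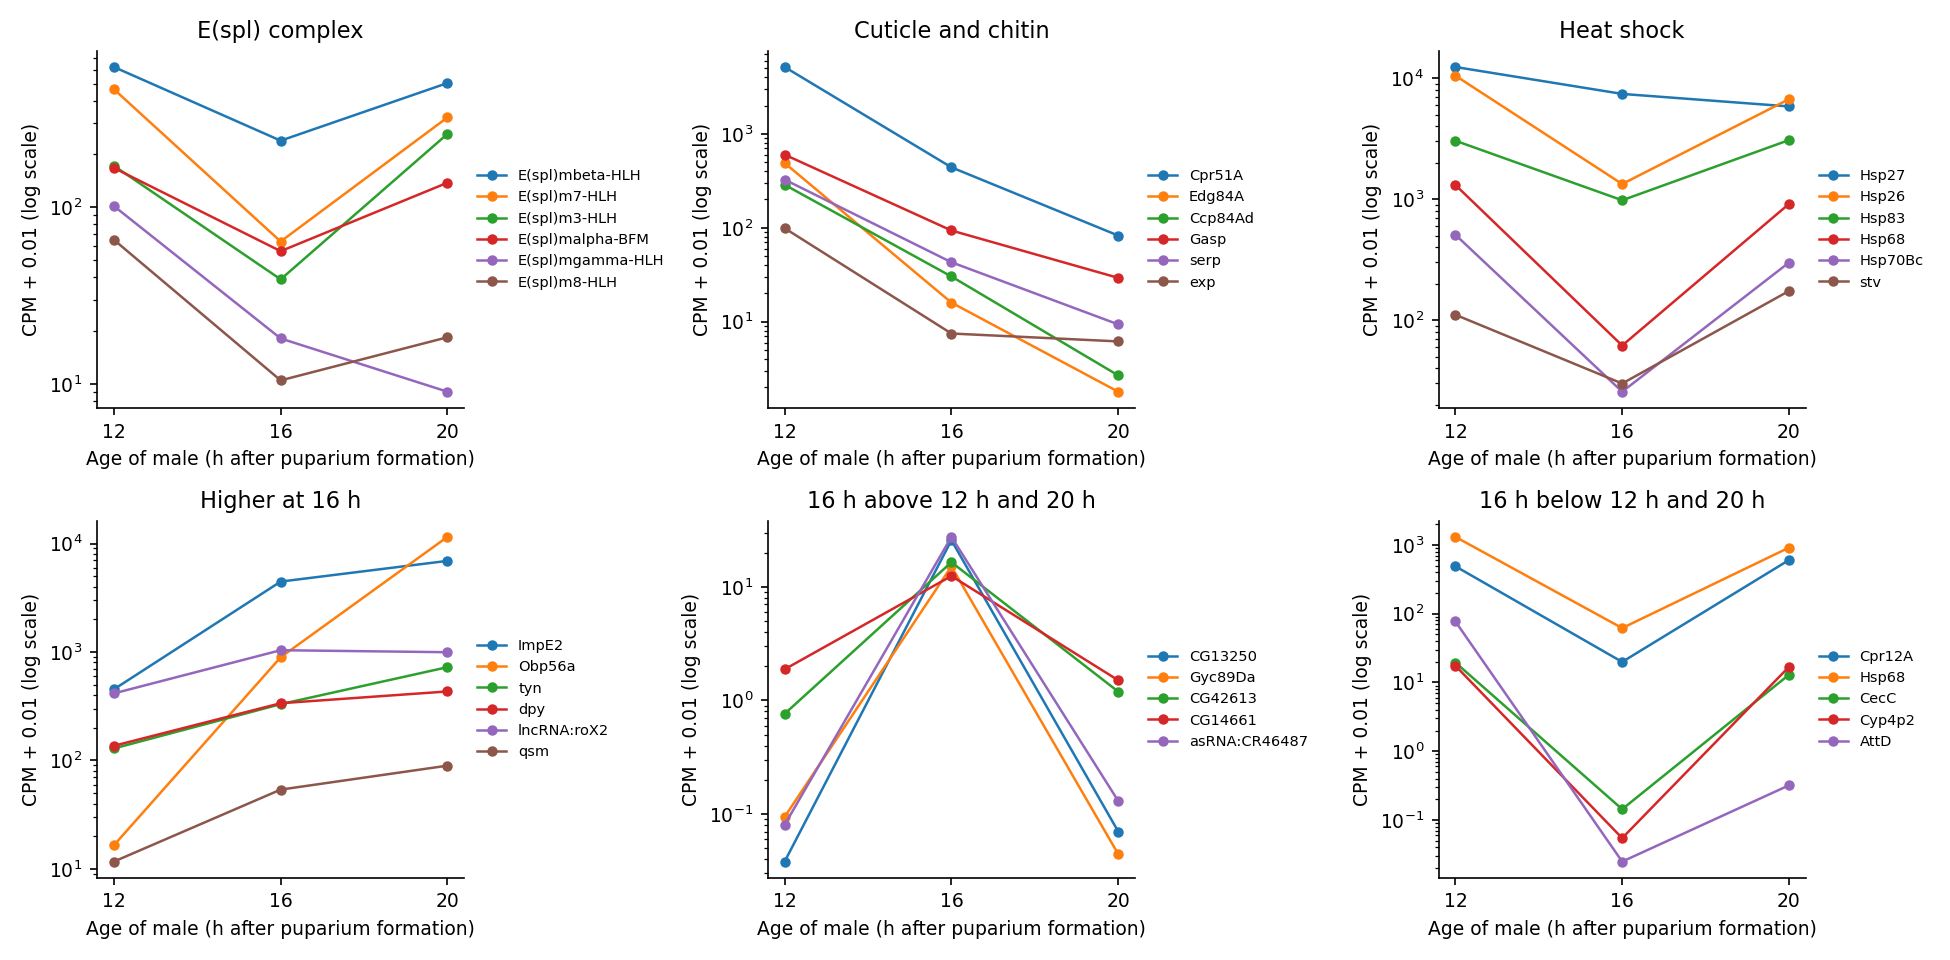
CPM + 0.01 (vertical axes, log scale) in the 12 h, 16 h and 20 h male libraries (horizontal axes) for 6 sets of genes; each point is 1 library, and the 12 h and 20 h libraries share the mCherry reporter. The 6 cuticle and chitin genes drawn step down at each age, ImpE2 and Obp56a step up, and most of the heat shock and E(spl) genes drawn are lowest at 16 h, as Hsp68 with 61.7 CPM between 1309 CPM at 12 h and 913 CPM at 20 h.

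Genes of the cuticle laid down by the prepupa and early pupa were lower at 16 h. Of 20 such genes listed, 6 were high enough to compare and all 6 were at least 2-fold lower, beside 8.84% of all genes, though 2 of the 6 passed only through their 12 h level and 4 have transcripts under 750 bases. Their summed level was 529 CPM at 16 h and 6100 CPM at 12 h, and 133 CPM at 20 h. Edg84A, a pupal cuticle protein gene named for its induction by an ecdysone pulse, had 16.0 CPM at 16 h and 489 CPM at 12 h, which makes it 30.6-fold lower (log2 -4.94, interval -5.03 to -4.85). Cpr51A had 440 CPM at 16 h and 5150 CPM at 12 h (log2 -3.55). Ccp84Ad and Ccp84Aa, of a cluster of cuticle genes, had 30.3 and 1.41 CPM at 16 h against 287 and 38.6 CPM at 12 h, and Edg78E had 37.4 CPM at 16 h and 109 CPM at 12 h. Each of these 5 was lower still at 20 h, whereas Edg91, with 1.81 CPM at 16 h and 11.7 CPM at 12 h, had 34.0 CPM at 20 h. Outside the list, Cpr100A had 363 CPM at 16 h and 7589 CPM at 12 h, and CG15213 and CG1850 had 2614 and 3709 CPM at 16 h against 15077 and 10179 CPM at 12 h. Phk-3, which encodes a chemosensory protein homologue, had 27.8 CPM at 16 h and 803 CPM at 12 h. Cpr12A was low at 16 h between higher neighbours, with 489 CPM at 12 h, 19.9 at 16 h and 602 at 20 h. CG15213 has a transcript of 366 bases.

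Of 17 genes compared for the synthesis and modification of chitin, the polysaccharide of the cuticle, 8 were at least 2-fold lower at 16 h and 2 at least 2-fold higher, beside 8.84% and 3.43% of all genes. None had transcripts under 750 bases. The chitin deacetylases serp and verm had 42.9 and 92.6 CPM at 16 h against 326 and 252 CPM at 12 h, and Cda4 and Cda5 were also lower, with log2 ratios of -1.53 and -2.54. Gasp and obst-A, secreted chitin-binding proteins, had 93.5 and 114 CPM at 16 h against 600 and 242 CPM at 12 h. exp and reb, which act with chitin synthase in Drosophila tracheae, had log2 ratios of -3.73 and -1.20. The chitin synthase gene itself, kkv, was nearly level, with 91.0 CPM at 16 h and 96.8 CPM at 12 h (log2 -0.09, interval -0.13 to -0.05). The chitinases Cht5 and Cht10, which digest old cuticle at a moult, had 11.5 and 138 CPM at 16 h against 4.74 and 61.9 CPM at 12 h. Cht5 was compared only through its 16 h level and was not past 2-fold with each cell thinned to 2000 UMIs, and neither was past 2-fold when cells weighed the same.

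Zona pellucida domain proteins build the apical extracellular matrix that holds the epidermis to the overlying cuticle. Of 8 of their genes compared, 4 were at least 2-fold higher at 16 h and 1 lower, beside 3.43% and 8.84% of all genes. In epithelium-like cells 3 of 7 were higher and 2 lower, beside 3.86% and 10.1% of genes there. The list summed to 1348 CPM at 16 h and 833 CPM at 12 h in all cells, and to 1479 and 1073 CPM in epithelium-like cells. qsm had 53.8 CPM at 16 h and 11.7 CPM at 12 h, which makes it 4.61-fold higher (log2 2.21). tyn had 330 CPM at 16 h and 129 CPM at 12 h, and dpy, the giant protein dumpy that tethers epidermis to cuticle, 337 CPM at 16 h and 136 CPM at 12 h. Both were higher again at 20 h. neo was also higher (log2 1.15), while its relative nyo had 12.6 CPM at 16 h and 27.6 CPM at 12 h.

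Of 13 receptors and transcription factors of the ecdysone relay compared, 1 was past 2-fold, beside 12.3% of all genes. This was Blimp-1, with 15.8 CPM at 16 h and 4.11 CPM at 12 h (log2 1.95, interval 1.80 to 2.10), and 42.6 CPM at 20 h; it was compared only through its 16 h level. Blimp-1 encodes a repressor induced by the hormone that times ftz-f1 in Drosophila prepupae, and ftz-f1 had 15.4 CPM at 16 h and 23.1 CPM at 12 h. The early genes Eip74EF and Eip75B had 79.0 and 456 CPM at 16 h against 43.0 and 309 CPM at 12 h, and Eip74EF was past 2-fold without the ribosomal protein and mitochondrial genes in the total. The receptor EcR had 335 CPM at 16 h and 274 CPM at 12 h, and its partner usp 13.7 and 19.5 CPM in the same order. The pupal specifier br had 15.8 CPM at 16 h and 22.7 CPM at 12 h, and Eip93F, active in the pupal-to-adult step, 1292 CPM at 16 h and 1958 CPM at 12 h. Of 8 genes named for induction by ecdysone, ImpE2 was at least 2-fold higher and ImpE3 and ImpL2 lower. Over all genes the shares were 3.43% and 8.84%. ImpE2, an apically secreted protein of imaginal discs, had 4456 CPM at 16 h and 453 CPM at 12 h, 9.85-fold higher, with 6919 CPM at 20 h. ImpL2, a secreted binder of insulin-like peptides, had 9.64 CPM at 16 h and 23.1 CPM at 12 h, and ImpE3 8.32 and 24.1 CPM in the same order.

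Of 12 symbols listed for the Enhancer of split complex, 11 matched a feature and 10 were high enough to compare. All 10 were at least 2-fold lower at 16 h, beside 8.84% of all genes. These genes, transcribed in answer to Notch, encode bHLH repressors and small Bearded-family proteins. The complex summed to 474 CPM at 16 h and 1844 CPM at 12 h, and to 1371 CPM at 20 h. In each class of cells the sum was lower at 16 h. It was highest in muscle precursor-like cells (1376 CPM at 16 h, 8228 CPM at 12 h), and stood at 891 and 4666 CPM in unnamed clusters. These held 0.863% and 4.36% of UMIs at 16 h against 2.79% and 11.6% at 12 h, and the part of this was not tested. E(spl)m6-BFM was a leading gene of the muscle precursor-like cluster at both ages. E(spl)m6-BFM had 11.5 CPM at 16 h and 147 CPM at 12 h (log2 -3.68, interval -3.78 to -3.57). The repressor gene E(spl)m7-HLH had 63.9 CPM at 16 h and 465 CPM at 12 h, and 322 CPM at 20 h, and E(spl)mbeta-HLH, the most abundant, 620 CPM at 12 h, 238 at 16 h and 503 at 20 h. E(spl)m3-HLH had 171 CPM at 12 h, 39.0 at 16 h and 259 at 20 h. For these 3 the 16 h level was thus below both neighbours. E(spl)mgamma-HLH and E(spl)mdelta-HLH, in contrast, were lower again at 20 h, with 9.02 and 7.29 CPM. The ligand Dl and the transducer Su(H) had 210 and 45.3 CPM at 16 h against 223 and 43.6 CPM at 12 h. Without the ribosomal protein and mitochondrial genes in the total, 9 of the 10 E(spl) genes were past 2-fold lower, beside 452 of 6947 genes.

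In the sensory organ lineage, sens, phyl, ase and scrt were at least 2-fold lower at 16 h, while the proneural genes ac and sc were not. They were the 4 lower genes of 17 compared, and none was at least 2-fold higher (8.84% and 3.43% of all genes). Of the 4, sens, phyl and ase passed only through their 12 h level. Among the 14 members with at least 5 CPM in both libraries, 1 was at least 2-fold lower, beside 7.15% of all such genes. sens, which maintains the precursor fate, had 22.4 CPM at 12 h, 4.73 at 16 h and 0.215 at 20 h. phyl and ase, also expressed in precursors, had 3.50 and 4.03 CPM at 16 h against 11.9 and 12.4 CPM at 12 h. The neuronal repressor gene scrt had 65.4 CPM at 16 h and 141 CPM at 12 h. The proneural genes ac and sc had 11.6 and 28.1 CPM at 16 h against 7.05 and 19.6 CPM at 12 h, and pros, which marks a pair of the bristle's inner cells, 39.7 CPM at 16 h and 23.9 CPM at 12 h. CG15282, with 0.296 CPM at 16 h and 14.6 CPM at 12 h, had 86.7% of its 12 h UMIs in the sensory organ-like class. Within that class, sens had 27.8 CPM at 16 h and 123 CPM at 12 h, ase 13.7 and 54.9 CPM, and phyl 13.6 and 47.5 CPM in the same order. The class is mixed differently at each age: its cluster with sens and cato markers held 477 of 1449 cells at 16 h and 659 of 1241 at 12 h, and its cluster with Su(H) and Sox15 markers 733 and 501. The 8 neuron markers summed to 195 CPM at 16 h and 196 CPM at 12 h. Of 7 compared, 4 were at least 2-fold higher at 16 h, beside 3.43% of all genes, and 3 had a negative ratio. 3 of the 4 passed only through their 16 h level: the sodium channel gene para (8.76 CPM at 16 h, 1.99 CPM at 12 h), the active zone gene brp (13.3 and 3.46 CPM), nSyb and Syt1. elav, found in all neurons, had 35.5 CPM at 16 h and 38.5 CPM at 12 h. Within neuron-like cells the 8 markers summed to 2860 CPM at 16 h and 2729 CPM at 12 h. The sum was 58.4 and 28.4 CPM in epithelium-like cells, and 296 and 82.2 CPM in unnamed clusters, in the same order. At 16 h, brp was not among the markers found for the neuron-like cluster, and it was for an unnamed cluster of low UMI count.

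The leg patterning genes were near level: of 22 compared, 1 was at least 2-fold higher and none lower, beside 3.43% and 8.84% of all genes. That one was bab1, with 18.2 CPM at 16 h and 7.75 CPM at 12 h, and its neighbour bab2, which shares its role in the distal leg, had 92.6 and 48.7 CPM. dsx had 118 CPM at 16 h and 66.4 CPM at 12 h (log2 0.83, interval 0.78 to 0.87), and 114 CPM at 20 h. The proximal-distal genes Dll and dac had 220 and 151 CPM at 16 h against 298 and 111 CPM at 12 h. The segment polarity genes en, hh, ptc, wg and ci had log2 ratios between -0.71 (en) and 0.24 (ci).

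Cell cycle genes were lower at 16 h. Of 26 compared, 16 were at least 2-fold lower, beside 8.84% of all genes, and none higher, and 24 had a negative log2 ratio, with a list median of -1.10. The replication licensing genes Mcm2, Mcm3, Mcm5, Mcm6 and Mcm7 had log2 ratios between -1.85 (Mcm6, 11.3 CPM at 16 h and 40.7 CPM at 12 h) and -1.23 (Mcm3). PCNA, the clamp of the replicating polymerase, had 162 CPM at 16 h and 366 CPM at 12 h, and 43.5 CPM at 20 h. The mitotic kinase gene aurB had 223 CPM at 12 h, 86.6 at 16 h and 8.77 at 20 h, and the mitotic cyclin gene CycB 101, 43.5 and 15.1 CPM in the same order. These 3 were thus lower at each later age. The 2 members with a positive ratio were stg and dap. stg, the Cdc25 phosphatase that triggers mitosis, had 604 CPM at 16 h and 574 CPM at 12 h, and dap, which encodes a Cyclin E inhibitor, 132 and 125 CPM. Without the ribosomal protein and mitochondrial genes in the total, 12 of the 26 were at least 2-fold lower, beside 452 of 6947 genes.

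Heat shock genes had a lower summed level at 16 h. Of 17 stress genes compared, 8 were at least 2-fold lower at 16 h and 1 higher, beside 8.84% and 3.43% of all genes, and their list summed to 1.65% of UMIs at 16 h and 3.88% at 12 h. Hsp68 had 61.7 CPM at 16 h and 1309 CPM at 12 h, 21.2-fold lower (log2 -4.41), with 913 CPM at 20 h. The small chaperone genes Hsp26 and Hsp67Bc had 1333 and 50.0 CPM at 16 h against 10469 and 462 CPM at 12 h. The co-chaperone genes DnaJ-1 and stv and the Hsp90 gene Hsp83 were also below both the 12 h and the 20 h level. Hsp70Bc and Hsp70Ab were lower at 16 h and Hsp70Bb higher (37.7 CPM at 16 h, 14.0 CPM at 12 h), but the Hsp70 copies are near-identical and the counts of each are uncertain. Hsp23 and Hsp27 had 5849 and 7400 CPM at 16 h against 9211 and 12350 CPM at 12 h. The genes of the AP-1 transcription factor, kay and Jra, had 57.1 and 60.5 CPM at 16 h against 77.1 and 90.7 CPM at 12 h. The sum was also lower at 16 h within classes of cells, with 16821 CPM at 16 h and 35958 CPM at 12 h in epithelium-like cells, and 39075 and 112480 CPM in hemocyte-like cells. In the other libraries the sum lay between 23147 CPM (24 h females) and 56554 CPM (36 h males).

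**Figure D4:**
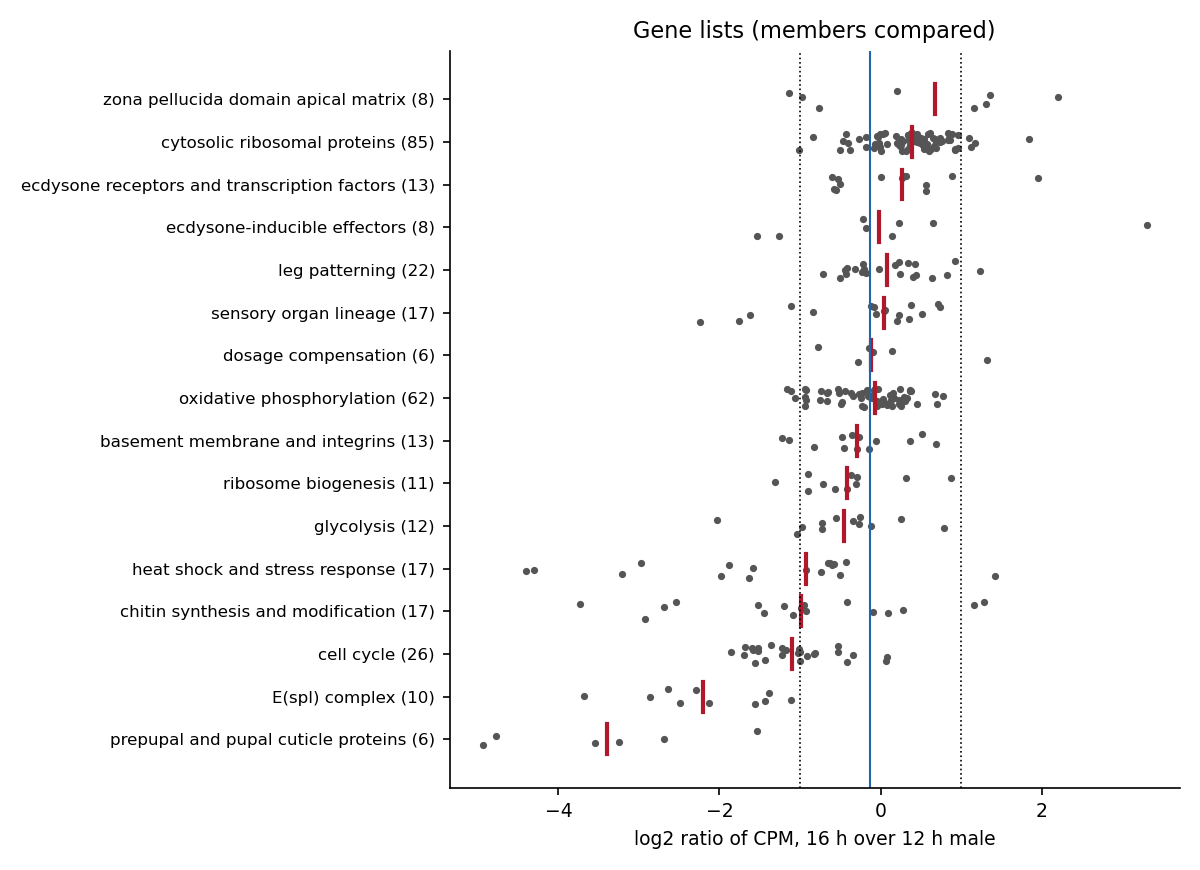
Log2 ratio of CPM, 16 h over 12 h male (horizontal axis), for the compared members of 16 gene lists (vertical axis, number of members in brackets); each grey point is a gene, red bars are list medians, the blue line is the median of all genes compared (-0.13) and dotted lines mark 2-fold. The 6 cuticle protein genes, the 10 E(spl) genes and 16 of the 26 cell cycle genes lie left of the lower dotted line.

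Ribosomal protein genes took a larger share of UMIs at 16 h. Of 85 compared, 67 had a positive log2 ratio, with a list median of 0.39. Past 2-fold were 4 higher (RpL22, RpS5a, RpL11 and RpS3) and 1 lower (RpL38), beside 3.43% and 8.84% of all genes. RpL22 had 639 CPM at 16 h and 179 CPM at 12 h, and RpS3 6127 and 2861 CPM in the same order. The 48 ribosomal protein genes under 750 bases had a median of 0.23, and the 37 longer ones 0.60. Of 11 ribosome biogenesis genes, 1 was at least 2-fold lower, beside 8.84% of all genes. This was the growth regulator Myc, with 15.2 CPM at 16 h and 37.8 CPM at 12 h, and 38.2 CPM at 20 h.

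Among 12 glycolytic genes, Hex-A, the hexokinase of the first step, had 36.9 CPM at 16 h and 151 CPM at 12 h (log2 -2.03), and Gapdh2 121 CPM at 16 h and 248 CPM at 12 h. These were the 2 at least 2-fold lower, beside 8.84% of all genes, and Hex-A alone was so without the ribosomal protein and mitochondrial genes in the total. In all, 10 of the 12 had a negative ratio, with Ldh (9.24 CPM at 16 h, 5.37 CPM at 12 h) and Tpi on the other side. The list summed to 1820 CPM at 12 h, 1206 at 16 h and 951 at 20 h. Of 62 nuclear-encoded genes of oxidative phosphorylation, 3 were at least 2-fold lower and none higher, beside 8.84% and 3.43% of all genes. The 3 were ND-B14.5B, ND-15 and UQCR-6.4. The list summed to 13234 CPM at 16 h and 14665 CPM at 12 h. That sum turned to a log2 ratio of 0.04 without the ribosomal protein and mitochondrial genes in the total. The 32 members under 750 bases had a median log2 ratio of -0.46 and the 30 longer ones 0.14, and all 3 that were 2-fold lower were short.

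The 13 mitochondrial genes for proteins divided by complex. All 7 that encode complex I subunits were at least 2-fold lower at 16 h, beside 8.84% of all genes. They summed to 1678 CPM at 12 h, 590 at 16 h and 1928 at 20 h. The other 6, of complexes III, IV and V, summed to 8997 CPM at 16 h and 8179 CPM at 12 h, and none was past 2-fold. mt:ND2 had 35.1 CPM at 16 h and 149 CPM at 12 h (log2 -2.09), and mt:ND5 161 and 355 CPM (log2 -1.14), while mt:CoI had 2168 and 1899 CPM. The lengths of the 2 sets overlapped, 291 to 1717 bases for complex I and 162 to 1536 for the rest. In epithelium-like cells mt:ND5 had a log2 ratio of -0.89 and the other complex I genes stayed past 2-fold.

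Smaller lists held 1 or 2 genes past 2-fold each, beside 12.3% of all genes past it either way. With so few members, these counts are not read as changes of the lists. grim, which triggers apoptosis, was the 1 of 13 cell death and autophagy genes past 2-fold, with 9.25 CPM at 16 h and 1.55 CPM at 12 h. It was compared only through its 16 h level, and among cells with at least 1000 genes no member was past 2-fold, while hid and rpr had log2 ratios of -0.31 and -0.20. Mmp1, a matrix metalloprotease, and trol, the perlecan of basement membranes, were the 2 of 13 matrix genes that were lower, with 8.55 and 20.5 CPM at 16 h against 20.0 and 45.1 CPM at 12 h. In epithelium-like cells no matrix gene was at least 2-fold lower and Mmp2 and Timp were higher, and trol was not past 2-fold without the ribosomal protein and mitochondrial genes in the total. roX2 was the 1 of 6 dosage compensation genes past 2-fold, with a length of 627 bases, and roX1 and the protein-coding members had log2 ratios between -0.78 and 0.13. The median ratio of the 1062 X-linked genes compared was -0.19, beside -0.10 to -0.14 on the large autosome arms and 0.22 for the 67 genes of chromosome 4.

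Antimicrobial peptide genes were lower at 16 h, and at 12 h most AttD and Drs UMIs lay in few cells. AttD had 1 UMI at 16 h and 10979 at 12 h (0.0148 and 77.1 CPM, log2 interval -17.65 to -9.87), Drs 0.178 CPM at 16 h and 45.2 CPM at 12 h, and CecC 19.5 CPM at 12 h, 0.133 at 16 h and 12.9 at 20 h. These 3 and Dro, the 4 of 14 listed genes that could be compared, passed only through their 12 h level, and all are under 750 bases. PGRP-SC2, an amidase that dampens immune signalling, had 0.0741 CPM at 16 h and 14.2 CPM at 12 h. At 12 h, 79.8% of the AttD UMIs and 82.8% of the Drs UMIs lay in hemocyte-like cells, and a single cluster of 134 such cells held 65.4% of AttD and 79.0% of Drs. CG13321 and CG7778 were likewise lower and mainly in hemocyte-like cells, with 3.65 and 1.66 CPM at 16 h against 163 and 43.6 CPM at 12 h. Cyp4p2, a cytochrome P450 gene, had 67.1% of its 12 h UMIs in epithelium-like cells, which held 57.6% of all 12 h UMIs. It had 3 UMIs (0.0445 CPM) at 16 h and 17.5 CPM at 12 h (log2 interval -10.90 to -7.07), 16.8 CPM at 20 h and 0.0214 CPM in the 24 h females.

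To see how far cell makeup moved with these values, each library was clustered alone and clusters were named from marker genes. Epithelium-like cells made up 71.1% of cells at 16 h and 46.1% at 12 h, sensory organ-like cells 12.3% and 10.7%, hemocyte-like cells 2.64% and 3.86%, and muscle precursor-like cells 0.719% and 2.61%. The 16 h sensory organ-like share includes a low-UMI cluster of 180 cells with grim, gcm, sna, beat-IIIc and lncRNA:CR30009 among its leading genes. At 12 h a cluster of 101 cells with the same genes among its leading ones was named glia-like. The sensory organ-like shares are therefore not of like cells. An unnamed low-UMI cluster of 703 cells at 12 h also carried hemocyte markers, and with cells of at least 1000 genes the hemocyte-like share was 3.07% at 16 h and 7.58% at 12 h. The 8 epithelium markers were present in both libraries and summed to 2327 CPM at 16 h and 2214 CPM at 12 h. Unnamed clusters of low UMI count held 5.27% of cells at 16 h and 24.7% at 12 h, and the naming rule uses the UMI count, so the class shares depend on it. Hemocyte markers summed to 83.8 CPM at 16 h and 113 CPM at 12 h over 9 genes, muscle precursor markers to 330 and 448 CPM over 8, and fat body markers to 6.39 and 12.1 CPM over 5. The part of cell makeup in the all-cell ratios was not tested beyond the epithelium-like values that follow.

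Within epithelium-like cells, 227 of 5884 genes were at least 2-fold higher at 16 h (3.86%) and 595 lower (10.1%). Of the genes past 2-fold in all cells, 169 higher and 423 lower ones were also past it here. The cell cycle genes had a larger difference than in all cells, with a median log2 ratio of -1.62 and 17 of 26 at least 2-fold lower, as did 7 cuticle genes compared, all lower, with a median of -3.79. E(spl) genes had a smaller one, with 9 of 10 past 2-fold and a sum of 394 CPM at 16 h and 1049 CPM at 12 h. E(spl)m6-BFM had a log2 ratio of -1.99 in these cells and -3.68 in all cells. Blimp-1 had a log2 ratio of 4.31 in these cells and 1.95 in all cells, and Obp56a 7.15 and 5.76. scrt, 2-fold lower in all cells, had a log2 ratio of 0.26 here. apolpp, also 2-fold lower in all cells, had a log2 ratio of 0.67 here but was too low in these cells to be compared. The 5 fat body markers, apolpp among them, summed to 2.55 CPM at 16 h and 2.12 CPM at 12 h in epithelium-like cells.

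**Figure D5:**
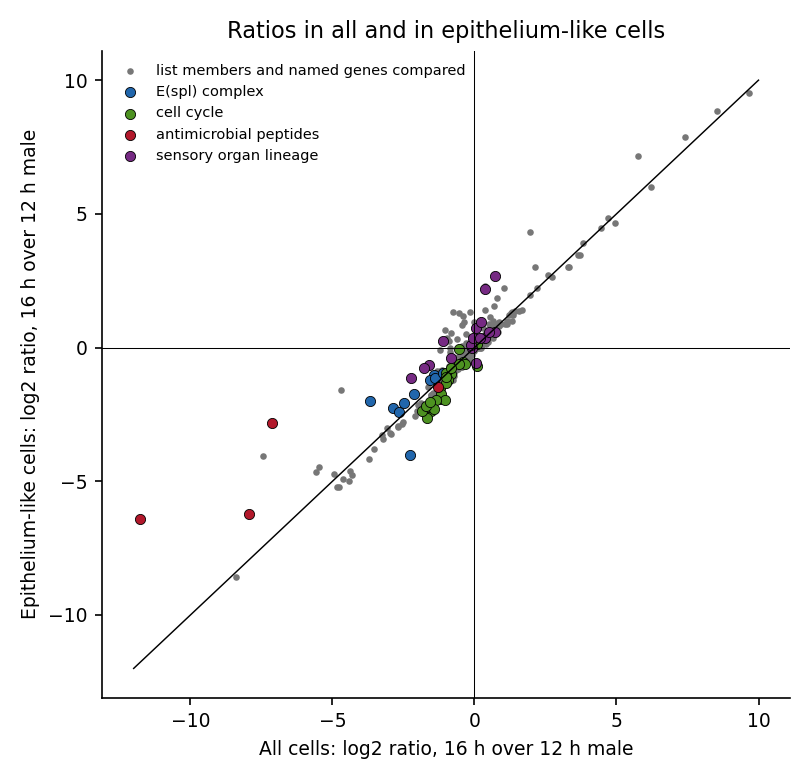
Log2 ratio, 16 h over 12 h male, in epithelium-like cells (vertical axis) against all cells (horizontal axis) for the list members and named genes compared in all cells. Some of them were too low to be compared in epithelium-like cells. Each point is a gene and the diagonal marks equal ratios. Most cell cycle genes lie below the diagonal, with a median of -1.62 in epithelium-like cells against -1.10 in all cells. The antimicrobial peptide gene AttD lies above it with -6.40 in epithelium-like cells against -11.76 in all cells. AttD was too low in epithelium-like cells to be compared there, and of the antimicrobial peptide genes only Dro was.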

How the data were processed

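Single-cell RNA was measured in 6 libraries of the first tarsal segment, of which the 16 h and 12 h male libraries were compared. The deposited matrices hold raw UMI counts for each feature and barcode. Per the file headers, the authors ran Cell Ranger 7.0.0, and the submitters' processing notes name genome build BDGP6. Strand use in counting was not stated, so antisense genes are uncertain. 2 further deposited matrices, of other males, were not used.

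Barcodes with at least 500 genes and at most 10% mitochondrial UMIs were kept. At 16 h, 154 barcodes fell under the gene minimum and 28 exceeded the mitochondrial maximum, and at 12 h 188 and 204 did. UMIs were summed per gene as CPM. mCherry, GFP and GAL4 stayed in the totals and out of the comparison. Genes with a mean of at least 5 CPM were compared, and with 1 library per group no test was possible, so a gene was counted past 2-fold on its ratio alone. CPM intervals are exact Poisson, ratio intervals exact conditional binomial and shares exact Clopper-Pearson, all at 95%. The ratio step was tested on simulated data. edgeR 4.0.16 and DESeq2 1.42.0 gave scaling factors for alternatives only.

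Named genes were the 12 with the largest ratio each way at 10 CPM or more, the 5 with the largest CPM difference each way, the 5 furthest above and the 5 furthest below both neighbouring ages, members of 18 gene lists, and dsx, Scr, roX1, roX2 and Sxl. The comparison, lists and rules were chosen with earlier results of these data known. The grouping by transcript length and the split of mitochondrial genes were chosen after values were seen. Gene identifiers were matched to the Ensembl annotation of BDGP6 for 16447 of 16496 features, for chromosomes and lengths.

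Clusters came from each library alone (scanpy 1.11.5, 2000 variable genes, 30 principal components, 15 neighbours, Leiden resolution 1). A marker counted when found in 10% of a cluster's cells and 2-fold above the rest. A class name needed 3 such markers, including a defining one where the class has one, and epithelium-like clusters needed 5 epithelium markers found in 10% of cells; clusters of low UMI count with no marker of a class among their leading genes stayed unnamed. Doublets were kept and their removal was an alternative.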

Additional observations from a re-analysis of the deposited data

How the results depend on the processing

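All values rest on 1 library per age, and 16 h was the shallower one. Thinning to equal library depth gave 215 genes at least 2-fold higher and 559 lower, and thinning each cell to 2000 UMIs 193 and 637. Scaling by edgeR's trimmed mean gave 190 and 668, and by DESeq2 size factors 189 and 672. The count higher was 431 when ribosomal protein and mitochondrial genes were left out of the total, and the median log2 ratio then turned to 0.073, since ribosomal proteins held 40.6% of UMIs at 16 h and 32.3% at 12 h. A mean of at least 20 CPM gave 89 and 297, with fewer genes compared, and no filter on level gave 4012 and 1512 with a median of 0.13. The limit of 750 bases, added after seeing the data, gave 199 and 425. In the other settings (at least 1000 genes, 5% mitochondrial maximum, doublets removed, 5 UMIs added, cells weighted the same, epithelium-like cells only) both counts stayed within 1.5 times. In epithelium-like cells scrt turned to 0.26, and apolpp, too low there to be compared, to 0.67. The cause was not tested. The 12 h shares of cells moved with the filters and clustering: epithelium-like 46.1% to 59.0%, hemocyte-like 3.86% to 7.58% and unnamed 8.23% to 30.6%. No paired analysis was possible because each age has 1 library and no shared replicate numbers.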

Other observations

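Gene families grouped by symbol, chosen after their values were seen, held further members. Of 11 serpin genes compared, which encode serine protease inhibitors, 7 were at least 2-fold higher at 16 h and 1 lower, beside 3.43% and 8.84% of all genes. Of the 7, at least Spn100A and Spn42Dd were compared only through their 16 h level. Serpins high enough in both libraries were not counted apart, so the counts are not read as a change of the family. Beside Spn100A, Spn42Dd had 27.3 CPM at 16 h and 3.62 CPM at 12 h, and Spn43Aa 295 and 89.5 CPM in the same order, while Spn55B had 5.92 CPM at 16 h and 12.8 CPM at 12 h. Of 16 Cpr cuticle protein genes, 10 were at least 2-fold lower, beside 8.84% of all genes. They include Cpr51A, Cpr100A and Cpr12A, described above, and Cpr65Ec with 19.9 CPM at 16 h and 398 CPM at 12 h. How many of them passed only through their 12 h level was not counted. Another 2 were higher, Cpr49Ae and Cpr49Ah, beside 3.43% of all genes, and Cpr49Ae was compared only through its 16 h level. Of the lower ones, Cpr67Fa1, Cpr65Ec, Cpr51A and Cpr47Ec have transcripts of 554, 566, 651 and 744 bases. Of 72 mitochondrial ribosomal protein genes, 3 were at least 2-fold lower and none higher, beside 8.84% and 3.43% of all genes, and those 3 were among the 38 under 750 bases. None of 14 tetraspanin genes was past 2-fold.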
